A study of Mus musculus with 8 samples.

Results

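The genes described here run the cell division cycle and copy DNA, together with relatives that share their names. They were measured in skin of near naked hairless mutant mice against skin of wild type mice, both aged 7 days. Members were the rows whose RefSeq accession maps to a mouse symbol of the Mcm, Cdk, Cdkn, Cdc and cyclin A to L series, or to Rrm1, Rrm2, Pcna, Mki67 or Top2a. A row also needed values on at least 3 arrays. The rule found 43 rows of 21766 probe rows, and 42 of these, each for its own gene, had enough values. The remaining row, Cdk5rap1, had no value on any array, and no row matched Mki67.

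The series held 8 arrays of skin RNA with 2 colours. Each carried total RNA labelled as the sample, read here as mutant, and total RNA labelled as the control, read here as wild type. Near naked hairless is a mutation at the hairless locus that leaves mice with sparse hair, and the zygosity of the pups is not given in the sources used here. The design text gives 5 biological replicates from 1 litter, and arrays are not tied to animals. Some of the 8 arrays therefore shared an animal, so the p-values are too small and measure in part technical spread. Mutant RNA was labelled with Cy5 for arrays 2, 4, 6 and 7, and with Cy3 for arrays 1, 3, 5 and 8. Values are log2 ratios of mutant over wild type, so a negative value means a lower signal in the mutant. The base of 2 and this direction are likely rather than given, and every direction below would turn with the other sign.

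The table was read as already turned to 1 direction on all arrays. Replicate spots of Gapdh, whose ratios cannot differ by genotype from spot to spot, had a median correlation of -0.45 over the 16 array pairs with swapped dyes, each of them negative, and of 0.55 over the 12 pairs without a swap, each of them positive. Differences among spots of 1 gene follow the dye, and their sign turned with the swap, which is the basis of that reading. Over all probes, arrays of opposite orientation shared little: the median r was -0.02, with 6 of 16 pairs above 0. Array 8 stood apart from its own orientation: over all probes its 3 pairs with arrays 1, 3 and 5 had a median r of 0.16, against 0.51 for the 9 other pairs of equal orientation. The share of rows with a value lay between 41.3% and 88.3% by array and was smallest on arrays 1, 2 and 3. The table holds ratios and no levels, so the labelled tissue could not be checked by the level of its markers, and whole skin does not tell fewer cells of a type from less RNA per cell.

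A dividing cell passes through growth, DNA synthesis and mitosis under cyclin-dependent kinases, which are switched on by cyclins and held back by inhibitor proteins. Before DNA synthesis a ring of MCM proteins is loaded at each replication origin, and it later unwinds the helix ahead of the polymerases. In skin of this age the dividing cells include basal keratinocytes and the matrix cells of growing hair follicles. Several genes that carry a Cdk name, above all Cdk5 and its activators, are better known for work in cells that do not divide.

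Of the 42 members, 14 had values on all 8 arrays, and 26 had values on at least 3 arrays of each dye orientation and were fitted. The fit was a mean ratio with a dye term in limma over all 11974 probes that met the same limit, with Benjamini-Hochberg adjustment over all of them and a threshold of 0.05. In the mutant 2 members were lower, Cdk16 and Cdk5r1, none was higher, and 24 did not pass. This is 7.69% of the members fitted, against 4.21% of all probes fitted. Lower calls made up 3.53% of all probes and higher calls 0.676%. At an unadjusted p below 0.05 8 members passed (30.8%), of which 6 were above 0, against 20.5% of all probes. The median fitted ratio of the members was -0.01, with 13 above 0 and 13 below, and that of all probes was 0.05. Among the replication genes, the ribonucleotide reductase genes and Mcm2 had positive ratios in the main fit. With values required on at least 3 arrays in all, Pcna and Cdc7 were at 1.04 and 0.90, and Mcm4 and Mcm5 at -0.57 and -0.72. None of these passed. Means over arrays were above 0 in 4 of 4 genes of the fork and nucleotide supply and in 3 of 3 of origins. In the MCM genes 4 of 5 means were below 0. Among them Mcm6 had a median of 0.16, with 4 of 7 arrays above 0. Top2a of the fork genes had 3 arrays above 0 and 3 below. Over all 42 members 20 means were above 0 and 22 below, and means were not counted over all probes. The main cyclin-dependent kinases lay near 0.

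**Figure D1:**
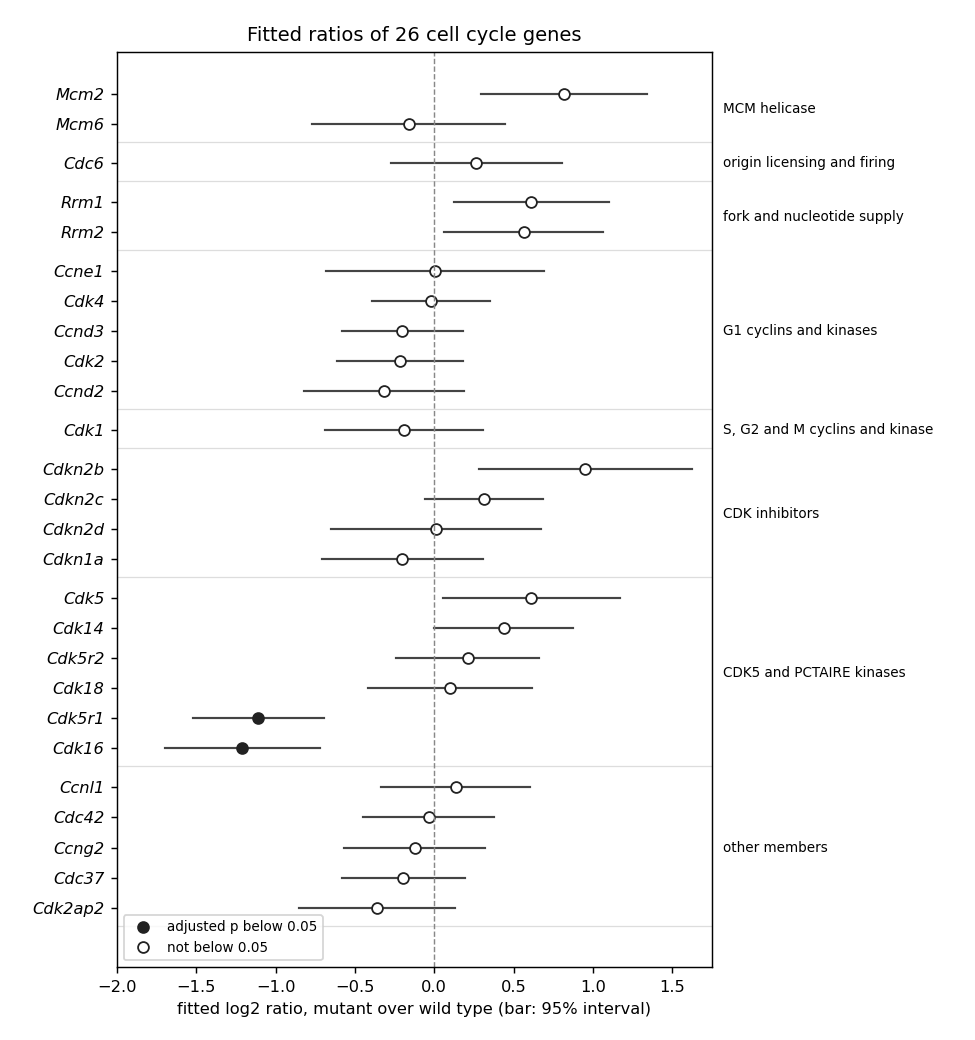
Fitted log2 ratios of mutant over wild type for the 26 fitted members, grouped by role, with 95% intervals as bars. Filled points mark an adjusted p below 0.05: Cdk16 at -1.21 and Cdk5r1 at -1.11 lie below 0, and all other points are open.

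The sequences below are of members chosen in part by their ratios, for which a promoter was held. Of these, Cdk16 alone passed in the main fit. Cdk16 is shown because it fell, Mcm2 and Mcm5 because they are subunits of 1 ring with ratios of opposite sign, and Rrm1 and Rrm2 because they are the subunits of 1 enzyme with like ratios. Each is the 250 bases upstream of a start site, 5′ to 3′ on the strand of the gene, from RefSeq on GRCm38.p6. Capitals mark the letters searched on both strands: TTTGGCGC, TTTCCCGC, TTTGCGC and GGCGGGAA for E2F, the factor of the G1 to S transition, CCAAT for NF-Y, and TTTGAA or TTCGAA for the cell cycle homology region. TTTCCCGC and the reverse complement of GGCGGGAA can overlap.
Cdk16, first start, chrX:20687704-20687953, plus strand: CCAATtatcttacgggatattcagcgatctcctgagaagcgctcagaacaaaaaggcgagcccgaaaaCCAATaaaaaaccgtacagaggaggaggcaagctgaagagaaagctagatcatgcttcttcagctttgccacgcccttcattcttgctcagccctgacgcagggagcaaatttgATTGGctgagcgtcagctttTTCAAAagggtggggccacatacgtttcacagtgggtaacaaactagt
Cdk16, second start, chrX:20688176-20688425, plus strand: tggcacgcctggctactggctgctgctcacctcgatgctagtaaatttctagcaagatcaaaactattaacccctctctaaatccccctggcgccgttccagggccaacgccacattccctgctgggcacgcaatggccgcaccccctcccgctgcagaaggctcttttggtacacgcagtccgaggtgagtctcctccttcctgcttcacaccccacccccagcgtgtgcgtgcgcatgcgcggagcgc
Mcm2, chr6:88898781-88899030, minus strand: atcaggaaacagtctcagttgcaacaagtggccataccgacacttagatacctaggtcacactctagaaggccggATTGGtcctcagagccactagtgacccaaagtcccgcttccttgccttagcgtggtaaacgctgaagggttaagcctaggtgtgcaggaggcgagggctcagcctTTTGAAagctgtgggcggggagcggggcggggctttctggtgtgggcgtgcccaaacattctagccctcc
Mcm5, chr8:75109259-75109508, plus strand: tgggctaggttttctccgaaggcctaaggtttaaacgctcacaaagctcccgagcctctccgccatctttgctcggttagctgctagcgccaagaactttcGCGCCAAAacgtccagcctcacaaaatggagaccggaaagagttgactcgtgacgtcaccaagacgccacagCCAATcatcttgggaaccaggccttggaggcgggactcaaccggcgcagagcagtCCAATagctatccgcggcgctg
Rrm1, chr7:102441445-102441694, plus strand: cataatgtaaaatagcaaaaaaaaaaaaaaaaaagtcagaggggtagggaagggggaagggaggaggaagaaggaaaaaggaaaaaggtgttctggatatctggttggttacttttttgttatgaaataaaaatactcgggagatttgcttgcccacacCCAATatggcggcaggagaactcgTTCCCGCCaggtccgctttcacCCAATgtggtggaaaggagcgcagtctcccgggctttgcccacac
Rrm2, chr12:24708004-24708253, plus strand: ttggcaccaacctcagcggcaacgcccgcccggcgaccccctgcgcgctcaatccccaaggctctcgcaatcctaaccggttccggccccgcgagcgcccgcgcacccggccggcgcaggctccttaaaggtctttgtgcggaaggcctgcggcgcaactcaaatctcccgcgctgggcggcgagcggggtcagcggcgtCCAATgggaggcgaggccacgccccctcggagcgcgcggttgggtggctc

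Of these, Mcm5 and Rrm1 hold E2F letters, with the first base 149 and 67 bases upstream of the start, and all but the second start of Cdk16, which holds none of the letters searched, hold CCAAT. Mcm2 and the first start of Cdk16 hold TTTGAA on one strand, 70 and 48 bases upstream. Of the 42 members, 35 had a promoter in the table, and 9 of these genes (25.7%) held E2F letters at a start, against 4.51% of 27025 genes of all kinds. CCAAT stood in 23 of 35 members, or 65.7%, against 37.5% of all genes, and the homology region letters in 9 of 35, against 19.6%. Counted by window, 3.95% of 32851 promoters of this length held E2F letters, 33.8% held CCAAT and 17.1% the homology region letters. A match describes letters and does not show binding. Cdk5r1 and Mcm4 had no entry.

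Cdk16 encodes a PCTAIRE kinase that is activated by cyclin Y and is known from vesicle transport and sperm formation rather than from driving division. Its ratios were -0.65, -0.81, -1.69 and -0.77 on arrays 2, 4, 6 and 7, with the mutant in Cy5, and -1.99, -1.60 and -0.73 on arrays 3, 5 and 8, with the mutant in Cy3. Every array with a value was below 0, and the orientations overlapped. The fitted ratio was -1.21 ± 0.22 (SE, 7 arrays, limma adjusted p = 0.0112), which is 0.432 times the wild type signal. Its 95% interval ran from -1.70 to -0.72.

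Cdk5r1 encodes the activator of CDK5 that is best known from neurons. It stood at -0.54, -1.24, -1.15 and -0.61 on arrays 2, 4, 6 and 7, with the mutant in Cy5. With the mutant in Cy3 it stood at -1.36, -1.26 and -1.39 on arrays 3, 5 and 8. All 7 values lay below 0, and the values with the mutant in Cy3 were below all of those with it in Cy5. The fitted ratio was -1.11 ± 0.19 (SE, limma adjusted p = 0.00785), a signal 0.463 times that of wild type, with an interval from -1.52 to -0.70. The dye part, which changes sign when the dyes are swapped, did not pass for either gene, at 0.23 for Cdk16 (adjusted p = 0.493) and 0.22 for Cdk5r1 (adjusted p = 0.425).

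Both calls held in each of the 8 fits that left out 1 array, with adjusted p up to 0.0484 for Cdk16 and 0.0346 for Cdk5r1. Neither gene had a value on array 1, so that fit did not change their ratios. On arrays 4 to 8 alone the ratios were -1.13 for Cdk16 and -1.16 for Cdk5r1, and both missed the threshold (adjusted p = 0.0928 and 0.0596). If the table were instead read as Cy5 over Cy3, the fitted ratios would be 0.23 and 0.22 and neither gene would be called, so both calls rest on the reading of the table. Of the 26 fitted members these 2 (7.69%) had the same sign on every array with a value, against 7.06% of all probes fitted.

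The partner and the relatives of these genes did not pass the test. Cdk5, the kinase that the product of Cdk5r1 activates, stood at 2.33, 0.59, 0.36 and 0.64 on arrays 2, 4, 6 and 7 and at 0.58, -0.11 and 0.27 on arrays 1, 3 and 8. Only array 3 was below 0, and the fitted ratio of 0.61 ± 0.26 did not pass (adjusted p = 0.202). Without array 2 it was 0.39. On the 6 arrays that measured both genes, the ratio of Cdk5 exceeded that of Cdk5r1 by 1.25 to 2.87. Cdk5r2, the second activator of CDK5, ran from -0.78 to 1.06, with a fitted ratio of 0.21 (interval -0.24 to 0.66). It lay above Cdk5r1 on 7 of 7 arrays, by 1.35 ± 0.60 (SD).

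Cdk18, a PCTAIRE kinase like Cdk16, had its lowest value, -1.31, on array 2 and its highest, 1.86, on array 3. Its fitted ratio was 0.10 with an interval from -0.41 to 0.62, and it was above Cdk16 on 6 of 7 arrays. Cdk14, a PFTAIRE kinase that also pairs with cyclin Y, stood at 1.94, 0.76, 0.62 and 1.12 on arrays 2, 4, 6 and 7 and at 0.42, -0.48, -0.52 and -0.36 on arrays 1, 3, 5 and 8. Its orientations did not overlap, at a fitted ratio of 0.44 (adjusted p = 0.242) with a dye part of 0.67 (adjusted p = 0.0619). Cdk5rap3, known from protein modification by UFM1, had values on 4 arrays only, from -0.18 to 1.49, and the looser limit gave 0.35. These pairs of genes were set side by side after their values were seen, and no test of the differences was made.

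**Figure D2:**
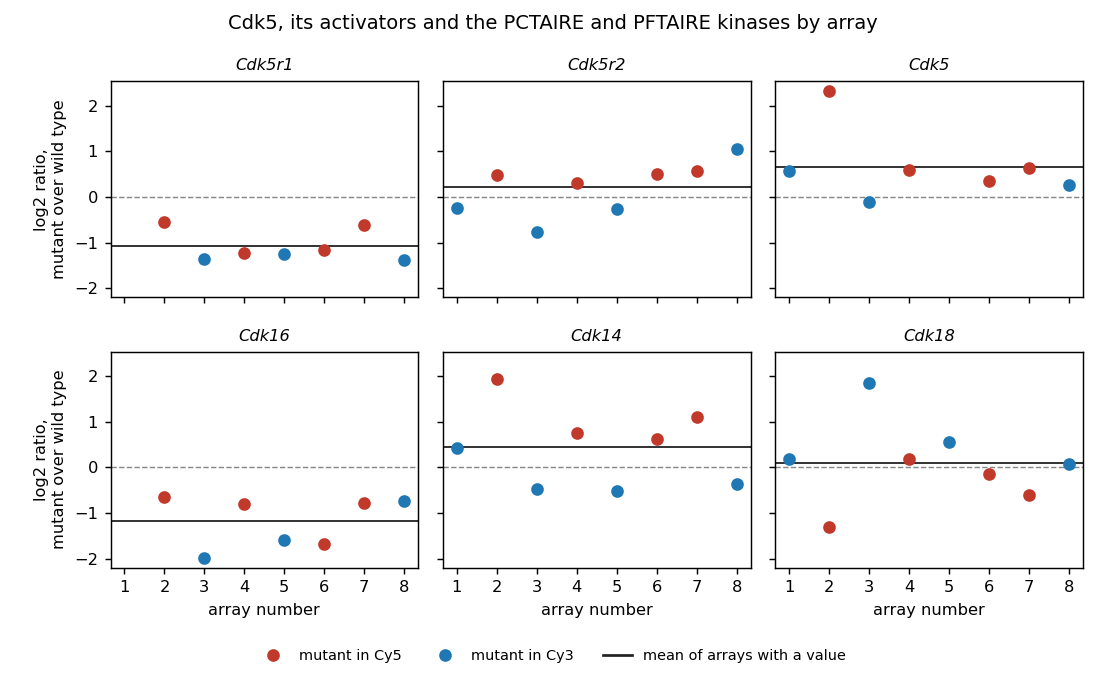
Log2 ratios of mutant over wild type by array for Cdk5r1, Cdk5r2, Cdk5, Cdk16, Cdk14 and Cdk18, with the mutant in Cy5 in red and in Cy3 in blue and the mean as a line. All 7 points of Cdk5r1 and of Cdk16 lie below 0, while the other panels hold points on both sides of 0.

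Among the MCM genes, whose products form the replicative helicase, Mcm2 had the highest ratio. It stood at 1.96, 1.15, 0.83 and 0.53 on arrays 2, 4, 6 and 7 and at 0.60, -0.03, -0.19 and 1.70 on arrays 1, 3, 5 and 8. Arrays 3 and 5 were slightly below 0 and the other 6 above. The fitted ratio was 0.82 ± 0.24 (SE, 8 arrays, interval 0.30 to 1.34), or 1.76 times wild type, and it did not pass (limma adjusted p = 0.0777). It passed with quantile normalization (adjusted p = 0.0321), with values required on all 8 arrays (0.0458) and with arrays weighted (0.0387), and these settings called 9.5%, 7.65% and 13% of all probes. In none of the 8 fits that left out 1 array did Mcm2 pass, at ratios from 0.62 to 0.94 (limma adjusted p up to 0.177).

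The other MCM subunits had means below 0, and their difference from Mcm2 was not tested. Mcm5 was at -0.85, -2.37, -0.13, -0.27, -0.44 and -0.55 on arrays 1, 2, 4, 5, 6 and 7, all below 0. Mcm4 was at -0.27, -0.21, -0.95, -0.12 and -1.18 on arrays 4 to 8, also all below 0. Both had too few values with the mutant in Cy3 for the main fit. With values on at least 3 arrays in all, their ratios were -0.72 ± 0.32 for Mcm5 (adjusted p = 0.336) and -0.57 ± 0.26 for Mcm4 (adjusted p = 0.350). Without arrays 2 and 8, on the second of which Mcm5 has no value, its ratio was -0.47. Neither gene passed at the looser limit, at which 1.86% of 20511 probes did.

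Mcm7 was at -1.70, -0.51 and -0.10 on arrays 4, 6 and 7 and at 0.66 and -0.31 on arrays 5 and 8, with -0.30 at the looser limit (adjusted p = 0.71). Mcm6 was at -2.27, -0.78, -0.07 and 0.16 on arrays 2, 4, 6 and 7 and at 0.66, 0.26 and 0.32 on arrays 1, 5 and 8, so that its orientations did not overlap. It had a fitted ratio of -0.16 (interval -0.77 to 0.45). Without array 2 the ratio of Mcm6 was 0.09. Within arrays, Mcm2 exceeded Mcm5 on 6 of 6 arrays by 0.09 to 4.33, and Mcm4 on 5 of 5 arrays by 0.02 to 2.89. It exceeded Mcm6 on 5 of 7 arrays (-0.45 to 4.23) and Mcm7 on 4 of 5 (-0.85 to 2.85). These pairs too were set side by side after their values were seen. The largest gap to Mcm5 was on array 2, where Mcm2 was at its highest and Mcm5 at its lowest value. Of the 16 members not fitted, Mcm4, Mcm5, Ccng1, Pcna and Ccnb2 had the same sign on every array with a value (31.2%), against 13% of all probes not fitted. The subunits of the ring had ratios of unequal sign, but none passed in the main fit or at the looser limit. No difference between subunits was tested. The intervals of Mcm4, Mcm5, Mcm6 and Mcm7 held 0. Whether the probes of the subunits measure equally well was not tested.

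None of the 3 members that prepare and fire origins passed, and only Cdc6 had enough values for the main fit. Cdc6, which helps to load the MCM ring, ran from -0.62 to 0.94 on 6 arrays, with a fitted ratio of 0.27 (interval -0.27 to 0.80). Cdc7, the kinase that phosphorylates the MCM ring at firing, stood at 0.65, 1.12, 0.52 and -0.53 on arrays 2, 4, 6 and 7 and at 1.78 and 0.92 on arrays 3 and 5. Array 7 alone was below 0, and the looser limit gave 0.90 ± 0.27 (adjusted p = 0.161). Cdc45, a part of the active helicase, lay between -0.24 and 0.63 on 4 arrays, with 0.33 at the looser limit.

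The genes of the fork and of nucleotide supply had positive mean ratios in 4 of 4 cases, and none passed. Of all probes fitted, 55.0% had a fitted ratio above 0, a share that counts fitted ratios and not means. Rrm1, the large subunit of ribonucleotide reductase, which makes deoxynucleotides, stood at 1.72, 0.77, 0.98 and 0.66 on arrays 2, 4, 6 and 7. On arrays 1, 3, 5 and 8 it stood at 0.04, -0.59, 0.00 and 1.33. Rrm2, the small subunit, stood at 1.14, 0.73, 0.97 and 0.64 on arrays 2, 4, 6 and 7 and at -0.04, -0.46, -0.13 and 1.67 on arrays 1, 3, 5 and 8. The subunits had the same pattern: high with the mutant in Cy5, near or below 0 with it in Cy3, except on array 8, where both were above 1.

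The fitted ratios were 0.61 ± 0.22 for Rrm1 (adjusted p = 0.150) and 0.57 ± 0.23 for Rrm2 (adjusted p = 0.189). Rrm1 minus Rrm2 stayed between -0.35 and 0.57 on the 8 arrays, with a mean of 0.05 ± 0.26 (SD). Without array 8 the dye part of both genes passed, and the fitted ratios were 0.42 for Rrm1 and 0.33 for Rrm2, neither of which passed. With arrays weighted Rrm1 passed at 0.51 (adjusted p = 0.0371), but its dye part passed there too. That setting called 13% of all probes, against 4.21% in the main fit.

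Pcna, the sliding clamp of the polymerases, had values on 5 arrays, all above 0: 1.52 and 1.00 on arrays 2 and 4, and 1.19, 0.78 and 0.50 on arrays 1, 3 and 8. Its mean was 1.00 ± 0.39 (SD, n = 5). It had no value on arrays 5, 6 and 7, the 3 arrays on which the most rows had a value. The looser limit gave 1.04 ± 0.24, which did not pass (adjusted p = 0.0819). Top2a, the topoisomerase that untangles chromosomes before mitosis, went the other way by dye. It was at -0.72, 0.28, -0.05 and -0.44 with the mutant in Cy5 and at 1.85 and 0.79 on arrays 3 and 5, so that the orientations did not overlap. The looser limit gave 0.54 (adjusted p = 0.337).

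**Figure D3:**
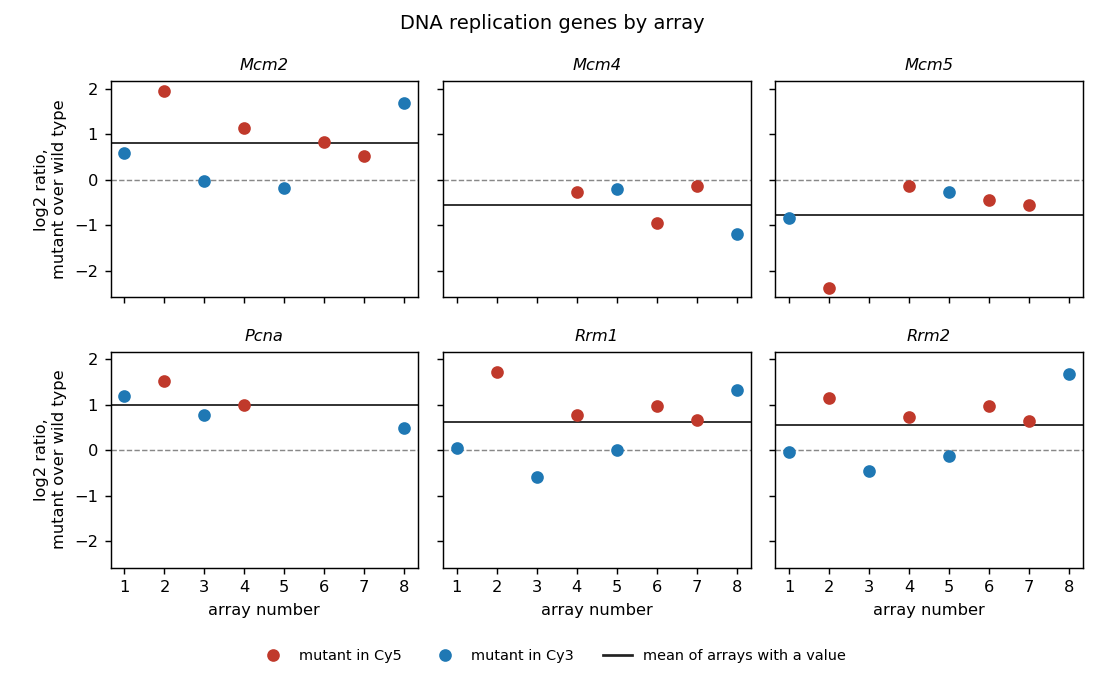
Log2 ratios of mutant over wild type by array for Mcm2, Mcm4, Mcm5, Pcna, Rrm1 and Rrm2, with the mutant in Cy5 in red and in Cy3 in blue and the mean as a line. All points of Mcm4 and Mcm5 lie below 0 and all 5 points of Pcna above, and Rrm1 and Rrm2 show the same pattern over arrays.

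The cyclins and kinases of G1, which commit a cell to division, had fitted ratios from -0.32 to 0.01, and none of 5 fitted passed. Cdk4, the partner of D cyclins, ran from -0.43 to 0.80 with a fitted ratio of -0.02 and an interval from -0.39 to 0.35. Cdk2, the partner of cyclins E and A, stood at 0.29, 0.73, 0.39 and -0.50 on arrays 2, 4, 6 and 7 and at -0.66, -0.90, -0.39 and -0.69 on arrays 1, 3, 5 and 8, with a fitted ratio of -0.22 (interval -0.61 to 0.18). Cdk4 had the narrowest interval of the fitted members, and a difference of the size seen for Cdk16 lay outside the intervals of both kinases.

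Ccnd2, a D cyclin, was at -0.66, 0.03 and 0.00 on arrays 4, 6 and 7 and at 0.04, -0.33 and -0.98 on arrays 1, 5 and 8, with a fitted ratio of -0.32 (interval -0.82 to 0.19). Without array 4 its ratio was -0.20 and without array 8 it was -0.18. Ccnd3 was above 0 on all 4 arrays with the mutant in Cy5 and below 0 on all 4 with it in Cy3. Its fitted ratio was -0.20 and its dye part 0.54 (adjusted p = 0.0727). Ccne1, an E cyclin, had its lowest value, -1.96, on array 2 and its highest, 1.64, on array 8, with a fitted ratio of 0.01 and the widest interval of all fitted members (-0.68 to 0.69). Ccne2 was at 0.68, 0.65 and 0.49 on arrays 4, 6 and 7 and at -0.82 on array 5, with -0.11 at the looser limit.

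Of the genes of S phase and mitosis only Cdk1, the kinase that drives mitotic entry, was fitted. It ran from -0.89 to 0.69 with a median of -0.10 and a fitted ratio of -0.19 (interval -0.69 to 0.31). Ccna2, the cyclin A of somatic cells, was at -0.65 and -1.67 on arrays 2 and 4 and at 0.26, 0.91, 1.10 and -0.73 on arrays 1, 3, 5 and 8. Ccna1, the cyclin A of the germ line, was below 0 on 5 of 6 arrays, and above 0 on array 5 at 0.95. Ccnb2, a mitotic B cyclin, had 3 values between 0.05 and 0.23, the fewest of any member. None of these cyclins could be fitted in the main fit, and the looser limit gave -0.39 for Ccna2, 0.06 for Ccna1 and 0.10 for Ccnb2, none of which passed.

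The inhibitors of the kinases gave 1 high ratio and no call. Cdkn2b, which blocks the kinases of D cyclins and is known as a target of TGF-beta, stood at 1.53, 1.09, 0.73 and 0.69 on arrays 2, 4, 6 and 7. On arrays 1, 3, 5 and 8 it stood at 0.27, -0.14, 0.34 and 3.12. Only array 3 was below 0. Its fitted ratio of 0.95 ± 0.31 (interval 0.28 to 1.62) was the highest of all fitted members, and it did not pass (adjusted p = 0.107). Without array 8 the ratio was 0.58 (adjusted p = 0.102). It passed with quantile normalization at 0.86 (adjusted p = 0.0254) and with arrays weighted at 0.68 (adjusted p = 0.0419). These settings called 9.5% and 13% of all probes, against 4.21% in the main fit.

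The relatives of Cdkn2b in the same family had smaller fitted ratios. Cdkn2c ran from -0.80 to 0.96 with a fitted ratio of 0.32 (interval -0.06 to 0.69), and Cdkn2d was at -2.62 on array 3 and between -0.36 and 1.06 elsewhere, with a fitted ratio of 0.01. Cdkn1a, a target of p53, had -0.49, -0.89, -0.47 and 0.29 with the mutant in Cy5 and 0.51, 0.32 and -0.86 on arrays 1, 5 and 8. Its fitted ratio was -0.20 with an interval from -0.71 to 0.31. Cdkn1b, which restrains the entry into S phase, ran from -1.13 to 0.33 on 5 arrays, and Cdkn1c, an imprinted gene, from -0.86 to 1.79 on 6. The looser limit gave -0.19 for Cdkn1b and 0.15 for Cdkn1c. No inhibitor passed the test, at either limit on the number of arrays.

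The remaining members share a name with the set and mostly have other work. Cdk2ap2, whose product binds CDK2, was at 0.40, -0.31 and 0.33 on arrays 2, 6 and 7 and at -0.54, -1.71, -0.95 and -0.24 on arrays 1, 3, 5 and 8, with a fitted ratio of -0.36 (adjusted p = 0.391), or -0.22 without array 3. It was below 0 on all arrays with the mutant in Cy3. Ccng1, a target of p53, was at -1.90, -0.30, -0.97 and -0.27 on arrays 4, 6, 7 and 8, below 0 on each. It had too few values for the main fit, and the looser limit gave -0.66 (adjusted p = 0.469).

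Ccng2, a cyclin linked to arrest, was fitted at -0.12, and its dye part was -0.55 (adjusted p = 0.0975). Ccnl1 and Cdk11b, which act together in RNA splicing, lay between -0.51 and 0.98 on 7 arrays and between -1.14 and 0.58 on 5 arrays. The fitted ratio of Ccnl1 was 0.14, and the looser limit gave -0.26 for Cdk11b. Cdc37, a partner of the chaperone HSP90, had a fitted ratio of -0.19 (interval -0.58 to 0.19), with its lowest value of -1.01 on array 2. Cdc42, a GTPase of cell polarity, had a fitted ratio of -0.04 (interval -0.45 to 0.38). None of these genes passed.

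The dye orientation moved with many of these ratios. The dye part was above 0 in 19 of 26 fitted members (73.1%), against 48.8% of all probes, with a median of 0.25, against -0.02 for all probes. No dye part of a member passed, against 5.34% of all probes. Without array 8 the dye parts of Ccnd3, Cdkn2c, Rrm1 and Rrm2 passed, against 20.1% of all probes. Over all 42 members, the mean with the mutant in Cy5 and that with it in Cy3 had opposite signs in 22. The median of the members by array was 0.40, 0.14, 0.06 and 0.16 on arrays 2, 4, 6 and 7, and 0.04, -0.48, -0.12 and -0.06 on arrays 1, 3, 5 and 8. The part of the dye in the members' ratios beyond the dye term was not tested.

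**Figure D4:**
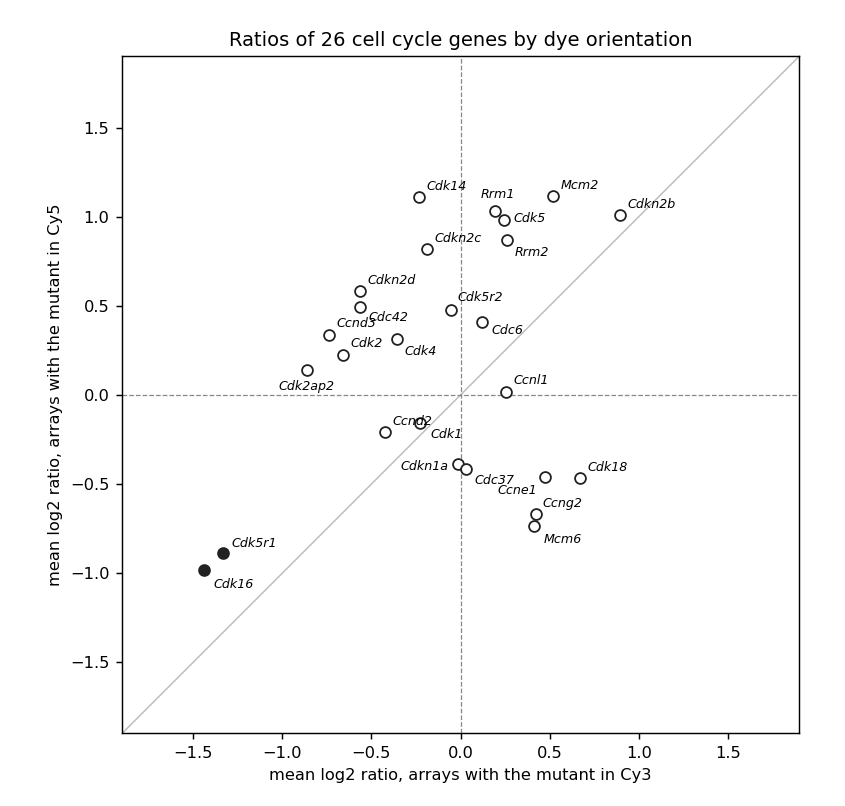
Mean log2 ratio of mutant over wild type on arrays with the mutant in Cy5 (vertical) against arrays with the mutant in Cy3 (horizontal) for the 26 fitted members, with filled points for an adjusted p below 0.05. Cdk16 and Cdk5r1 lie in the lower left, and 19 points lie above the diagonal of equal means.

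Other genes of the cycle, a list of 150 drawn up from textbook roles and not from how they moved, was examined beside the members. Of 50 fitted, 2 were lower, none was higher and 48 did not pass, a share of 4.00% against 4.21% of all probes. Their median fitted ratio was 0.04, with 26 above 0 and 24 below. Orc1, the largest subunit of the origin recognition complex, had values on all 8 arrays. The lowest was -1.94 on array 2, the median -0.94 and the highest -0.40 on array 3. Every array was below 0, and the fitted ratio was -0.99 ± 0.19 (limma adjusted p = 0.0136). Without array 1 it missed the threshold (adjusted p = 0.0543), as it did on arrays 4 to 8 alone (0.132).

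Stag1, a subunit of the cohesin ring that holds sister chromatids together, had a fitted ratio of -1.69 ± 0.26 (limma adjusted p = 0.00514). It was at -3.39 on array 2 and between -1.66 and -1.16 on the 6 other arrays with a value. Both genes fell in the mutant under the reading used. Read as Cy5 over Cy3, the ratios were -0.22 for Orc1 (adjusted p = 0.458) and -0.27 for Stag1 (adjusted p = 0.492), and neither was called. Orc6, a further origin subunit, was at 0.74 (adjusted p = 0.216) with 6 of 7 arrays above 0.

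By role, 14 fitted genes of the fork and of nucleotide supply had a median of 0.21, with 9 above 0 and none past the test. Among all 11974 probes fitted, 6588 were above 0 and 5386 below. The highest were Pola1, the catalytic subunit of polymerase alpha, at 0.75 (adjusted p = 0.126) and Pold2, a subunit of polymerase delta, at 0.73 (adjusted p = 0.0548). Pold2 was above 0 on 8 of 8 arrays. The dye part of Pola1 passed, at 0.97 (adjusted p = 0.0496), its mean was 1.72 with the mutant in Cy5 and -0.23 with it in Cy3, and without arrays 2 and 8 its ratio was 0.40. Rfc1, the large subunit of the clamp loader, was the lowest at -0.79 (adjusted p = 0.129), below 0 on 7 of 7 arrays. Of 19 fitted genes of mitosis 13 were below 0, with a median of -0.09, and Stag1 was the 1 that passed. The 5 fitted genes of the E2F and RB network and the 6 fitted genes of checkpoints had no call, with medians of 0.19 and 0.07. With a value there were 8 and 15. Checkpoint genes not fitted ran at the looser limit from -1.17 for Chek1 to 1.32 for Skp2. Neither passed (limma adjusted p = 0.0656 and 0.361), and Chek1 was below 0 on 5 of 5 arrays.

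Markers of the dividing cells of skin did not pass the test. Of 93 markers of all cell types 45 were fitted, of which 4 were higher and 3 lower, or 15.6% against 4.21% of all probes. Cfd of adipocytes rose by 1.96, but the 5 fitted adipocyte markers ran from -0.86 to 1.96, with 2 below 0. Krt1 of differentiated epidermis rose by 1.30, and the 4 fitted markers of that type ran from -1.06 to 1.30. C1qb of immune cells fell, with a ratio of -1.37, while the 9 fitted immune markers had a median of 0.41, with 7 above 0. Of 12 markers of the growing follicle matrix 5 were fitted, with a median ratio of 0.03 and a range from -0.36 to 0.47. Of 9 markers of basal keratinocytes 2 were fitted, Lamb3 at -0.06 and Col17a1 at 0.06. The dye part of Col17a1 passed, at 0.86 (limma adjusted p = 0.0371). Its mean was 0.92 with the mutant in Cy5 and -0.80 with it in Cy3, so its ratio near 0 averages values of opposite sign. Of 10 dermal fibroblast markers 7 were fitted, of which Vim and Fbn1 were higher and none was lower, with a median of 0.75 and a range from -0.21 to 1.17. The dye part of Vim passed, at -0.71 (limma adjusted p = 0.0472). Its mean was 0.47 with the mutant in Cy5 and 1.88 with it in Cy3. For Fbn1 the dye part of 0.64 did not pass (limma adjusted p = 0.0578). Of 8 hair shaft markers 3 were fitted, with a median of -0.58 and a range from -1.27 to 0.63. Krt31 was lower, and Krt35 was the 1 above 0. Of 6 markers of nerve and Schwann cells 3 were fitted, with a median of -0.34, and Mbp was lower. Their part in the ratios of the members was not tested.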

How the data were processed

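The deposited table holds, per array, 1 log2 ratio per spot on 2-colour arrays of mouse skin. The authors' normalization, scanner and log base are not known from these sources, and base 2 was assumed. The values were used as deposited, since only ratios and no spot signals were analysed here. Of 23232 rows, 864 blank, 275 buffer and 96 control spots were left out and 232 Gapdh spots were averaged, leaving 21766 rows, of which 6518 were named through RefSeq accessions. Each probe with values on at least 3 arrays of each dye orientation was fitted with a mean and a dye term in limma 3.58.1 (R 4.3.3), with Benjamini-Hochberg adjustment over all 11974 and a threshold of 0.05. Arrays without a value for a probe were dropped from its fit, and nothing was imputed. The number of arrays limits the precision. The fit was tested on simulated data. The members and lists were chosen with earlier results of these data known. Members shown by array were those past the threshold, the 6 highest and 6 lowest fitted ratios, the fitted Mcm genes, Pcna, Top2a, Rrm1 and Rrm2, and some others chosen after their values were seen. Of the other pathway genes, those past the threshold and the 3 highest and 3 lowest ratios were named. Alternatives were another reading of the dyes, other normalizations, filters and weights, and fits that left out arrays. Promoters came from RefSeq, GRCm38.p6.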

Additional observations from a re-analysis of the deposited data

Results flagged for a closer look

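Dixon's test was run on 42 sets: each member except Ccnb2, which had too few values, and the median of the members by array. In 5 of these sets, all of them members, the highest or lowest array stood apart. Chance gives about 1 in 20 sets, or 2.1 of 42. Cdkn2d was at -2.62 on array 3, with the next value at -0.36. Cdk5 was at 2.33 on array 2, with the next at 0.64, and Mcm5 was at -2.37 on array 2, with the next at -0.85. Ccne2 was at -0.82 on array 5, with the next at 0.49 and 4 values in all. Ccna1 was at 0.95 on array 5, with the next at -0.06.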

How the results depend on the processing

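Cdk16 and Cdk5r1 were both called in all 8 fits that left out 1 array (2 members each), without arrays 2 and 8, with no dye term, with arrays centred or scaled, with values on at least 3 arrays and with 1 row per named gene. The members called were 0 when ratios were read as Cy5 over Cy3, 4 with quantile normalization, 1 with values on all 8 arrays (where neither gene has them), 5 with arrays weighted and 0 on arrays 4 to 8 alone. Probes called in the whole table were 258 with no dye term, 1137 with quantile normalization (380 higher and 757 lower, against 81 and 423), 130 with 1 row per named gene, of 3730 fitted, 1556 with arrays weighted, 46 on arrays 4 to 8 alone, and 238 to 502 when 1 array was left out. Members with a called dye part were 2 as Cy5 over Cy3, 1 with arrays scaled, 3 with quantile normalization, 3 with values on all 8 arrays, 8 with arrays weighted, 4 without arrays 2 and 8, and 0 to 4 when 1 array was left out. Other pathway genes called were 3 as Cy5 over Cy3 (neither Orc1 nor Stag1), 6 with quantile normalization, 5 with arrays weighted, 1 on arrays 4 to 8 alone, and 1 to 3 when 1 array was left out. As Cy5 over Cy3, the construction gives the dye part as the ratio: Ccnd2 0.11, Ccnd3 0.54, Ccne1 -0.47, Ccnl1 -0.12, Cdc42 0.53, Cdk1 0.034, Cdk16 0.23, Cdk18 -0.57, Cdk2 0.44, Cdk2ap2 0.50, Cdk4 0.34 and Cdk5r1 0.22. Other ratios that changed sign belonged to members that did not pass, and the cause was not tested. With arrays weighted these were Ccne1 -0.092, Cdc42 0.13, Cdk1 0.00042, Cdk4 0.089 and Mcm6 0.053. On arrays 4 to 8 alone they were Cdc42 0.054 and Mcm6 0.031, with arrays scaled Mcm6 0.023, with arrays centred Ccne1 -0.0057 and Cdkn2d -0.0058, with no dye term Ccne1 -0.061, and with quantile normalization Mcm6 0.065. Without arrays 2 and 8 they were Ccne1 -0.037, Cdkn1a 0.029, Cdkn2d -0.31 and Mcm6 0.12. When 1 array was left out, the ratio ran from -0.29 to 0.25 for Ccne1, -0.10 to 0.077 for Cdc42, -0.096 to 0.24 for Cdk18, -0.10 to 0.053 for Cdk4, -0.31 to 0.093 for Mcm6, -0.33 to 0.012 for Cdkn1a, -0.23 to 0.35 for Cdkn2d and -0.045 to 0.25 for Ccnl1. Each value is already a ratio of mutant to wild type within 1 array. Arrays could not be grouped by animal, because no label ties them to animals. Missing values limit what can be said of the 16 members not fitted.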
